A study of Mus musculus with 12 samples.

Results

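RNA was measured in control mice that had received short-chain fatty acids (SCFA) in their drinking water and in control mice that had received no treatment, with 3 libraries in each group, 6 of the 12 libraries of the series. The groups were chosen by the library titles, control SCFA treated 1 to 3 and control untreated 1 to 3, and every gene of the count table was used. Mice were kept on either regime until about 8 weeks of age. Their bone marrow was then cultured for about 24 hours in alpha-MEM medium, and the cells that did not adhere, which the labels call progenitors, were collected for RNA. The labels give the genotype of these mice only as control and do not say whether they carried a Cre or a floxed allele, nor which SCFA was given or at what dose. The other 6 libraries came from SCFA-treated and untreated mice labelled homozygous, of genotype STAT3Cstopfl/fl CD4Cre (1 untreated library reads R26STAT3Cstopfl/fl CD4Cre), and serve here only for comparison. In those mice a Cre recombinase driven by the CD4 promoter, active mainly in T cells, removes a stop cassette in front of a constitutively active STAT3.

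SCFA are the end products of fibre fermentation by gut bacteria, chiefly acetate, propionate and butyrate. They act on cells through G protein-coupled receptors such as Ffar2, Ffar3 and Hcar2, enter through monocarboxylate transporters, and butyrate and propionate inhibit histone deacetylases. In mice, feeding SCFA or fibre has been linked to changed myeloid precursors in the marrow and to fewer osteoclasts, the bone-resorbing cells that form from those precursors when the receptor RANK is engaged.

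Depth ran from 16954355 to 20748995 counts per library. Levels are in CPM, counts scaled to a common library total, and 0 counts of a gene allow a level of up to 0.145 CPM in the deepest and 0.177 CPM in the shallowest library (3 counts, counting error only). The labels carry a date of unstated meaning, day 30 of month 3 for all SCFA libraries and day 1 of that month for all untreated libraries, so treatment and that date cannot be told apart in any result here. Whether each library stands for its own mouse is not labelled, so p-values reflect a spread among libraries that may be technical. That spread was estimated from all 12 libraries, homozygous ones included. S100a8, a gene of mature neutrophils, was the most counted gene in each of the 6 libraries. With it, 16 genes of mature neutrophils summed to 54215 to 56262 CPM in SCFA libraries and 29322 to 48767 CPM in untreated libraries. Genes of stem and progenitor cells, 16 of them, summed to 760.4 to 801 CPM in SCFA libraries and 729 to 762 CPM in untreated libraries; Kit and Cd34, which define progenitors, were counted in all 6 libraries. A principal component analysis of these 6 libraries put the SCFA libraries at 31.5, 36.8 and 55.9 on the first axis (41.4% of the variance), against -2.0, -84.5 and -37.7 for untreated 1 to 3, so that untreated 2 stood farthest apart.

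In control mice given SCFA, genes of the red cell lineage were lower: Slc4a1, Trim10, Rhd and Tmcc2 fell by 1.91 to 2.11 on the log2 scale, and they were also lower in homozygous mice given SCFA. Gdpd3, which encodes a lysophospholipase D, was higher by 10.1-fold in the fit. The chemokine genes Cxcl2, Ccl2 and Ccl3, the immediate early genes Egr1 and Fos, and Tnfrsf11a, the gene of RANK, were higher. Prg2 and Epx, genes of eosinophil granules, and several genes of neutrophil secondary granules were lower.

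With edgeR's quasi-likelihood test, 1393 of 15674 tested genes rose (8.89%) and 2039 fell (13%) at an adjusted p under 0.05, and 232 and 426 of them changed at least 2-fold. All 3 SCFA libraries lay above all 3 untreated libraries for 2179 genes (13.9%) and below them for 3658 (23.3%). The median log2 fold change over all tested genes was 0.04. These counts moved with the GC content of transcripts, the share of G and C bases. In the GC decile of genes lowest in GC content (28.3% to 40.9%), the median log2 fold change was 0.56, with 328 genes called higher and 1 lower; in the highest decile (57.4% to 78.3%) it was -0.73, with 6 called higher and 648 lower. Across 15385 genes the correlation of log2 fold change with GC content was -0.49, a description over genes that share the same 6 libraries. The libraries of a group differed among themselves in this respect. The log2 CPM of the highest decile minus that of the lowest, each set against the mean of the 6 libraries, was -0.46, -0.58 and -0.92 in SCFA 1 to 3, against -0.02, 1.26 and 0.68 in untreated 1 to 3. In the homozygous mice the median log2 fold change ran the other way, at -0.14 in the lowest and 0.39 in the highest decile.

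**Figure D1:**
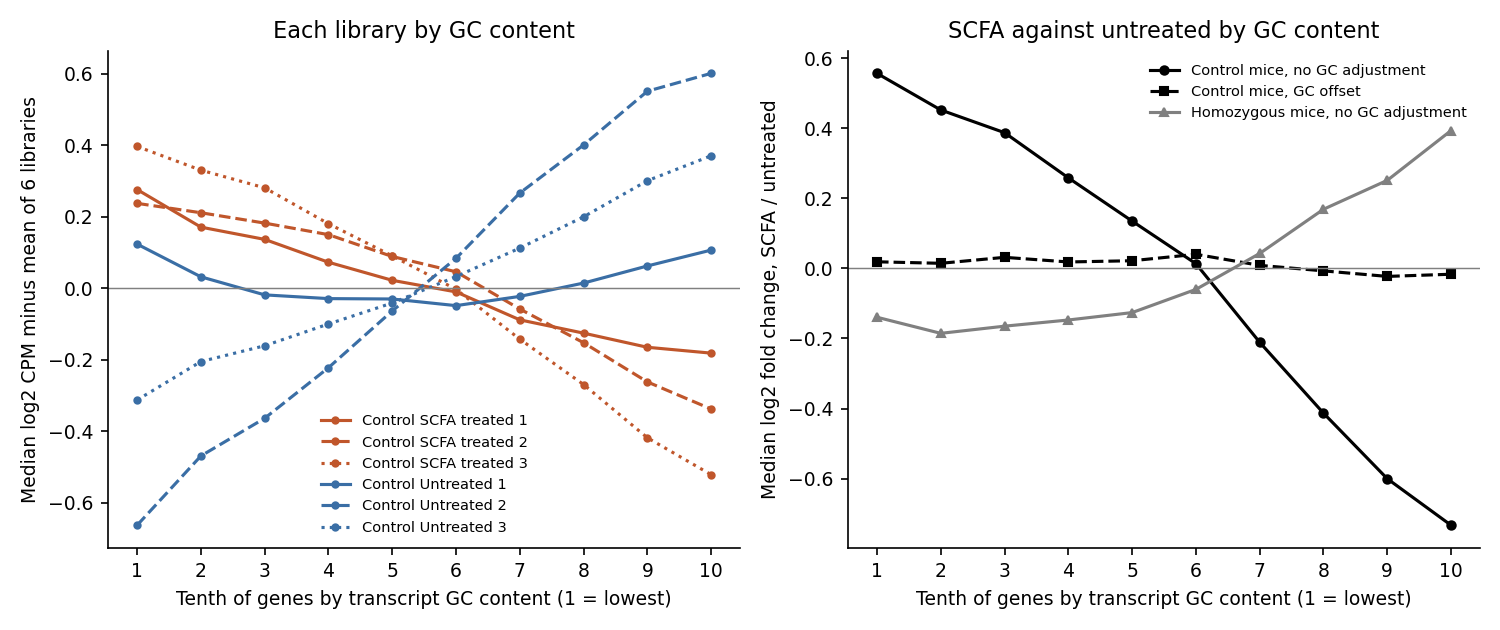
Left, median log2 CPM of each control library minus the mean of the 6 libraries, by decile of genes ordered by transcript GC content, with SCFA libraries in orange and untreated libraries in blue. Right, median log2 fold change of SCFA over untreated by the same deciles: in control mice it runs between 0.56 and -0.73 without adjustment and lies near 0 with the GC offset, and in homozygous mice it runs between -0.14 and 0.39.

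For this reason each result below is given from 2 fits: from the fit as designed, and from a fit in which a smooth curve of each library on transcript GC content enters as an offset. The offset was added after the data were seen, and by its construction it also removes any effect of treatment that follows GC content. With it, 362 genes rose (2.35%) and 409 fell (2.66%) of 15385, and the median log2 fold change was 0.01. Of the calls without the offset, 224 rises (16.1% of them, 61.9% of the rises with it) and 313 falls (15.4% and 76.5%) were shared. Without the offset the total of 3432 calls (21.9%) became 2462 without SCFA 1, 1697 without SCFA 2, 613 without SCFA 3, 5090 without untreated 1, 1292 without untreated 2 and 1935 without untreated 3. The total of 771 (5.01%) with the offset became 437, 333, 242, 1530, 297 and 391 in the same order. Both fits take the spread from all 12 libraries. With the 6 control libraries fitted alone the totals were 2035 without and 346 with the offset. Without the offset, the number of called members was lowest without SCFA 3 and highest without untreated 1 in all 39 gene lists tested. Both counts, or their range, are therefore given for the lists described, except those under other observations.

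Red cell genes were among the largest falls of genes with at least 5 CPM on average and no overlap between groups. Slc4a1, the anion exchanger of the red cell membrane, had 168, 156 and 136 CPM in SCFA libraries, against 400.3, 818 and 661 CPM in untreated libraries. Epb42, a membrane skeleton protein that binds it, had 41.98, 39.97 and 39.6 CPM in SCFA libraries, against 108, 141 and 129 CPM in untreated libraries. Trim10, a gene of terminal erythroid differentiation, had 42.4, 40.02 and 38.6 CPM in SCFA libraries, against 145, 198 and 177 CPM in untreated libraries. For each of the 3 genes all SCFA libraries lay below all untreated libraries, and the SCFA libraries differed among themselves by less than the untreated ones. Slc4a1 fell by 1.91 ± 0.2 on the log2 scale (SE; adjusted p = 2.01e-04), Epb42 fell by 1.53 ± 0.12 on the log2 scale (SE; adjusted p = 4.04e-05) and Trim10 fell by 1.99 ± 0.17 on the log2 scale (SE; adjusted p = 4.95e-05). With the GC offset the log2 fold changes were -1.38 (adjusted p = 1.07e-05), -1.72 (adjusted p = 2.28e-06) and -1.74 (adjusted p = 4.37e-06).

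Promoters are shown for the 3 called erythroid genes of smallest p whose window holds a copy of the motif recognised by GATA factors. The window runs from 250 bases before the start to 50 after it. GATA1 is the master regulator of red cell genes. The sequences are RefSeq's on GRCm38.p6, 5′ to 3′ in the direction of the gene, with AGATAA or its reverse complement TTATCT in capitals: Epb42 at chr2:121036828-121037127 (minus strand), Trim10 at chr17:36869324-36869623 (plus strand) and Rhd at chr4:134864286-134864585 (plus strand).
Epb42: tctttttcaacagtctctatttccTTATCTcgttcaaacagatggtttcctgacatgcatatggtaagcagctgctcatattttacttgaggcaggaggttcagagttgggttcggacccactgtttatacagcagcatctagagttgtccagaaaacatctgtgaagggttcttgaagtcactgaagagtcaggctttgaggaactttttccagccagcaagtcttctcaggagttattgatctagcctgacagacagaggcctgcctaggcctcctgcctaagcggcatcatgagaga
Trim10: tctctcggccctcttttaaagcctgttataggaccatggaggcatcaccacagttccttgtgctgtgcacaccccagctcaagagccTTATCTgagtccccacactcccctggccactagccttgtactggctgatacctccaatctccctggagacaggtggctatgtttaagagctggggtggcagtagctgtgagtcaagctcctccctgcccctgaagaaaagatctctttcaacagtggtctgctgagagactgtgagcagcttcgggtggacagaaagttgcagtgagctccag
Rhd: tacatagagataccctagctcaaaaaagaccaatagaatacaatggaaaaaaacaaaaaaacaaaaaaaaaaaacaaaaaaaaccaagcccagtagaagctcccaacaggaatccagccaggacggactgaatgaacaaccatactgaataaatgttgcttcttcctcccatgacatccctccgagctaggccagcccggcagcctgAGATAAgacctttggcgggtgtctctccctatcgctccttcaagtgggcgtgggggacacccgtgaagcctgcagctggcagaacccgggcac
Of the 13 erythroid genes called lower, 10 matched a promoter by symbol, and 4 of those 10 held AGATAA on either strand, against 7.05% of 10757 promoters of tested genes and 11.2% of all 32851 promoters of 300 bases in the table. Gata1, the gene of this factor, is on the erythroid list and was not among the 13 called lower without the GC offset. A match describes these letters and does not show binding, and a part of GATA1 in the falls was not tested. The letters were not counted in the erythroid genes that did not pass. The shares therefore do not set genes that fell apart from other erythroid genes. The promoter windows of the other 6 hold no copy of these letters.

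Of 21 tested genes of the erythroid list, 13 fell and 0 rose, at a median log2 fold change of -1.18, and with the GC offset 14 fell and 0 rose, at a median of -0.9 (61.9% called against 21.9% of all genes, and 66.7% against 5.01% with the offset). All 13 fell in both fits, and between 13 and 15 were called lower without any 1 control library, or between 11 and 15 with the offset. The summed level of the list was 12330.5 to 13952 CPM in SCFA libraries and 21491 to 23251 CPM in untreated libraries, and the groups did not overlap. The falls covered several roles. Among blood group and membrane proteins, Rhd fell by 2.11 ± 0.25 on the log2 scale (SE; adjusted p = 4.64e-04) and Rhag, its partner in the Rh complex, fell by 1.44 ± 0.19 on the log2 scale (SE; adjusted p = 0.00105); Ermap, a blood group protein, fell by 1.26 (adjusted p = 0.00246) and Sptb, a red cell spectrin, by 1.59 (adjusted p = 0.00613). Alas2 and Fech, the first and the last enzyme of haem synthesis in red cells, fell by 1.18 (adjusted p = 7.48e-04) and 0.68 (adjusted p = 0.00366). Klf1, a transcription factor of late red cell genes, had 5.45, 4.26 and 3.65 CPM in SCFA libraries, against 9.03, 16.9 and 15.01 CPM in untreated libraries, and its groups did not overlap; it fell by 1.5 (adjusted p = 0.00322), or -0.73 (adjusted p = 0.0346) with the offset, a call lost with the offset without any 1 library except untreated 1 (adjusted p from 0.0767 to 0.127), as was that of Sptb without any 1 library except untreated 1 (adjusted p from 0.0701 to 0.194). Car2, a carbonic anhydrase, fell by 1.27 ± 0.11 on the log2 scale (SE; adjusted p = 5.23e-05).

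Of 3 globin genes, 2 fell and 1 did not pass the test without the offset. The alpha globin gene Hba-a1 had 1948, 1515 and 1634 CPM in SCFA libraries, against 3948, 5121 and 5203 CPM in untreated libraries. Its near-identical copy Hba-a2, which may share reads with it, had 577, 484 and 515 CPM in SCFA libraries, against 1084, 1521 and 1240.3 CPM in untreated libraries. Hbb-bs, an adult beta globin gene that also has a close copy, had 6572, 6377 and 7544 CPM in SCFA libraries, against 10266, 8949 and 8009 CPM in untreated libraries. The SCFA libraries lay below the untreated libraries for all 3 genes, but SCFA 3 and untreated 3 were close for Hbb-bs. Hba-a1 fell by 1.38 (adjusted p = 0.00109) and Hba-a2 by 1.18 (adjusted p = 0.00264), whereas Hbb-bs stood at -0.31 (adjusted p = 0.186) and did not pass the test. With the offset Hba-a1 stood at -0.74 (adjusted p = 0.00375) and Hba-a2 at -0.55 (adjusted p = 0.0309), against -0.15 (adjusted p = 0.675) for Hbb-bs, and the call of Hba-a2 was lost without any 1 library except untreated 1 (adjusted p from 0.0575 to 0.122). The 8 erythroid genes that did not pass ranged from -0.85 to 0.32. In bulk RNA, fewer cells of a type and less RNA per cell cannot be told apart.

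**Figure D2:**
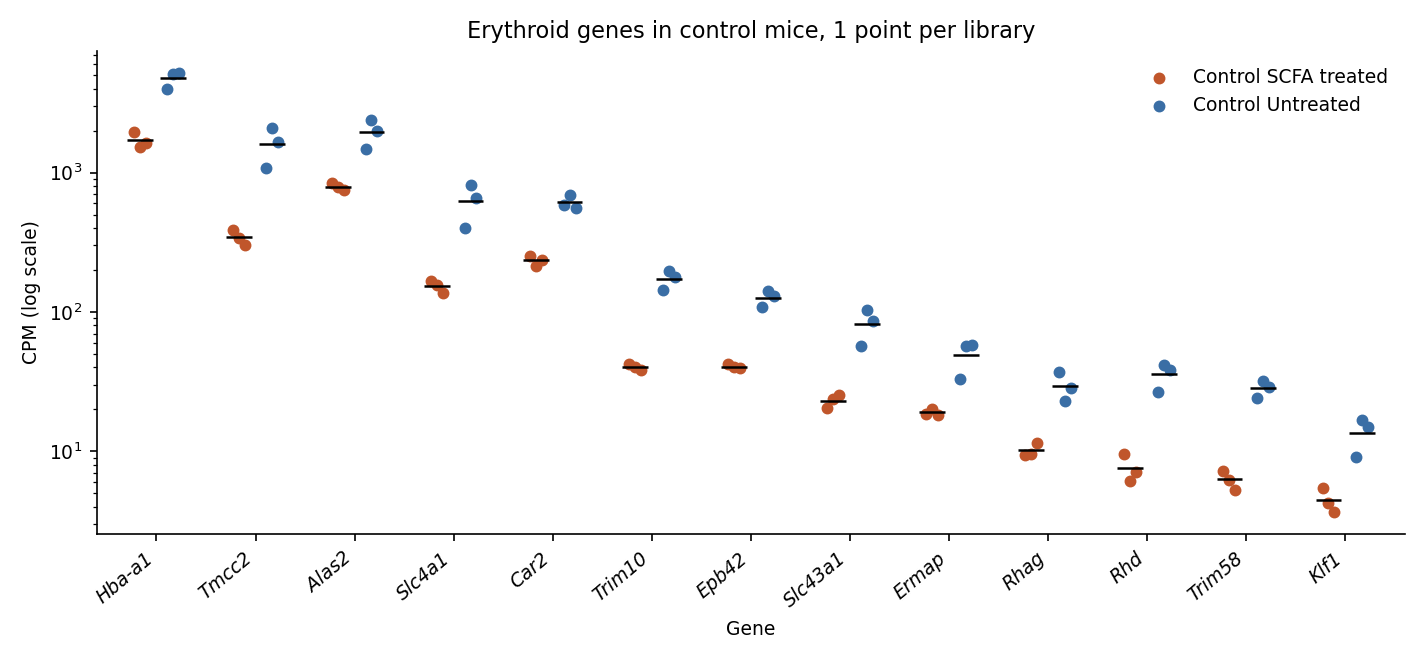
CPM on a log scale of 13 red cell genes in each library of the control mice; points are libraries 1 to 3 of a group, SCFA left and untreated right, and bars are group means. The genes were picked among those called lower, and Tmcc2, Slc43a1 and Trim58 are not on the erythroid list. Hba-a2, Sptb and Fech, which also fell, and the erythroid genes that did not pass, such as Hbb-bs, are not shown. For every gene shown, the 3 SCFA libraries lie below the 3 untreated libraries.

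The 15 largest falls by the naming rule ranged from -2.11 to -1.61, and 13 of the 14 with a GC value also fell with the offset. Besides Rhd, Trim10 and Slc4a1 they included Tmcc2, a membrane protein gene, which had 385, 340.3 and 303 CPM in SCFA libraries, against 1072, 2083 and 1644 CPM in untreated libraries. No libraries overlapped, and Tmcc2 fell by 2.11 ± 0.2 on the log2 scale (SE; adjusted p = 9.85e-05). Trim58, an E3 ligase of late erythroblasts, fell by 2.07 (adjusted p = 9.96e-05), and Slc43a1, an amino acid transporter, by 1.71 (adjusted p = 3.06e-04). Ppp1r15a encodes GADD34, which restores translation after stress. It had 297, 268 and 227 CPM in SCFA libraries, against 643, 1239.7 and 989.5 CPM in untreated libraries. Its libraries did not overlap either, and it fell by 1.74 ± 0.19 on the log2 scale (SE; adjusted p = 3.04e-04), or stood at -1.17 (adjusted p = 1.40e-05) with the GC offset. Trib3, a pseudokinase induced by the factors ATF4 and CHOP, fell by 2.0 (adjusted p = 0.00388), and Ddit3, the gene of CHOP, by 1.0 (adjusted p = 0.00497). Of 22 genes of unfolded protein and amino acid stress, 11 fell and 1 rose, and 5 fell and 1 rose with the GC offset, all called in both fits (54.5% called against 21.9% of all genes, and 27.3% against 5.01% with the offset). Without the offset 1 rose and 5 fell without SCFA 3, and 2 and 11 without untreated 1. With the offset Ddit3 stood at -0.47 (adjusted p = 0.0334), a call lost without any 1 library except untreated 1 (adjusted p from 0.0841 to 0.111).

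The largest rise was of Gdpd3 (chromosome 7, 126766334 to 126775649 on mm10), which had 26.2, 26.1 and 21.3 CPM in SCFA libraries, against 2.56, 3.303 and 1.95 CPM in untreated libraries. No SCFA library came near an untreated one. It rose by 3.34 ± 0.24 on the log2 scale (SE; adjusted p = 1.65e-05), stood at 3.71 (adjusted p = 5.18e-07) with the GC offset, and at 4.01 in homozygous mice. Gucy1b1, the beta subunit of the nitric oxide receptor guanylate cyclase, had 15.1, 13.2 and 14.8 CPM in SCFA libraries, against 3.85, 3.07 and 4.86 CPM in untreated libraries. Hpgds, the synthase of prostaglandin D2 in blood cells, had 53.8, 48.3 and 51.6 CPM in SCFA libraries, against 18.6, 7.73 and 16.7 CPM in untreated libraries. Neither overlapped between groups, and untreated 2 was the lowest library for both. Gucy1b1 rose by 1.97 ± 0.22 on the log2 scale (SE; adjusted p = 3.41e-04) and Hpgds by 1.93 ± 0.26 on the log2 scale (SE; adjusted p = 0.00111), and with the GC offset they stood at 1.59 (adjusted p = 2.76e-04) and 1.52 (adjusted p = 0.00115).

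Of the 15 largest rises, which ranged from 1.43 to 3.34, 8 were also called higher with the GC offset and 7 kept the call without each control library in turn, against 14 of the 15 largest falls. Among those called in both fits were Kynu, the kynureninase of tryptophan breakdown (rose by 1.5 (adjusted p = 0.00321)), Klrk1, the activating receptor NKG2D (rose by 1.43 (adjusted p = 0.00575)), and the zinc finger gene Zscan26 (rose by 1.54 (adjusted p = 0.00485)); their values with the GC offset were 1.03, 0.92 and 1.17. With the offset the call of Klrk1 was lost without any 1 library (adjusted p from 0.0503 to 0.154) and that of Zscan26 without SCFA 3 (adjusted p = 0.0669). Ly6a, the gene of the stem cell antigen Sca-1, had 161, 183 and 167 CPM in SCFA libraries, against 105, 88.6 and 95.8 CPM in untreated libraries. All SCFA libraries were higher, and it rose by 0.92 ± 0.13 on the log2 scale (SE; adjusted p = 0.00141), or 0.8 with the GC offset. It was the 1 of 14 tested stem and progenitor genes that rose. Another 2 fell, and with the offset 1 rose and 0 fell (21.4% called against 21.9% of all genes, and 7.14% against 5.01% with the offset). Of these 14 genes, 1 rose and 0 fell without SCFA 3, and 3 and 3 without untreated 1, in fits without the offset.

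The chemokine genes Cxcl2, Ccl2 and Ccl3 were called higher in both fits. Cxcl2, which attracts neutrophils, had 86.8, 83.7 and 103 CPM in SCFA libraries, against 41.3, 27.8 and 36.1 CPM in untreated libraries. Ccl2, which attracts monocytes, had 41.9, 34.2 and 33.9 CPM in SCFA libraries, against 18.8, 17.8 and 13.9 CPM in untreated libraries. Ccl3, made by myeloid cells, had 85.3, 90.4 and 82.1 CPM in SCFA libraries, against 40.8, 42.3 and 36.99 CPM in untreated libraries. All 3 genes were higher in every SCFA library than in any untreated library. Cxcl2 rose by 1.48 ± 0.18 on the log2 scale (SE; adjusted p = 5.10e-04), Ccl2 rose by 1.23 ± 0.19 on the log2 scale (SE; adjusted p = 0.0029) and Ccl3 rose by 1.21 ± 0.16 on the log2 scale (SE; adjusted p = 0.00105). With the GC offset they stood at 1.09 (adjusted p = 2.03e-04), 0.82 (adjusted p = 0.014) and 0.96 (adjusted p = 0.00152). Of 19 tested inflammatory cytokines and chemokines 7 rose and 2 fell, at a median of 0.52, and with the GC offset these 3 rose and 0 fell, at a median of 0.41 (47.4% called against 21.9% of all genes, and 15.8% against 5.01% with the offset). Of the list, 3 rose and 0 fell without SCFA 3, and 6 and 2 without untreated 1. With the offset the call of Ccl2 was lost without SCFA 1 or untreated 3 (adjusted p from 0.0612 to 0.0622). Ptgs2, the inducible cyclooxygenase, rose by 1.37 (adjusted p = 0.0103), but its call was lost without SCFA 3 (adjusted p = 0.0557) and with the GC offset (0.84 (adjusted p = 0.118)).

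Immediate early genes, which cells switch on within minutes of a stimulus, were called in both directions without the GC offset and in 1 direction with it. Egr1, an immediate early transcription factor, had 163, 130.4 and 147 CPM in SCFA libraries, against 87.3, 94.7 and 94.8 CPM in untreated libraries. Fos, a subunit of the factor AP-1, had 445, 403 and 401 CPM in SCFA libraries, against 284, 294 and 261 CPM in untreated libraries. The groups did not overlap for either. Egr1 rose by 0.78 ± 0.11 on the log2 scale (SE; adjusted p = 0.00179) and Fos by 0.68 ± 0.11 on the log2 scale (SE; adjusted p = 0.00348), and the rises stood at 1.4 (adjusted p = 9.35e-05) and 0.89 (adjusted p = 3.63e-04) with the GC offset. Dusp1, a phosphatase that switches off MAP kinases, rose by 0.37 (adjusted p = 0.0252), a call lost without any 1 of SCFA 2, SCFA 3 or the 3 untreated libraries (adjusted p from 0.0512 to 0.07), and stood at 0.86 (adjusted p = 6.73e-05) with the offset. Of 22 tested members 4 rose and 4 fell at a median of -0.11; with the GC offset 6 rose and 0 fell at a median of 0.29 (36.4% called against 21.9% of all genes, and 27.3% against 5.01% with the offset). Without the offset 2 rose and 0 fell without SCFA 3, and 3 and 7 without untreated 1.

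**Figure D3:**
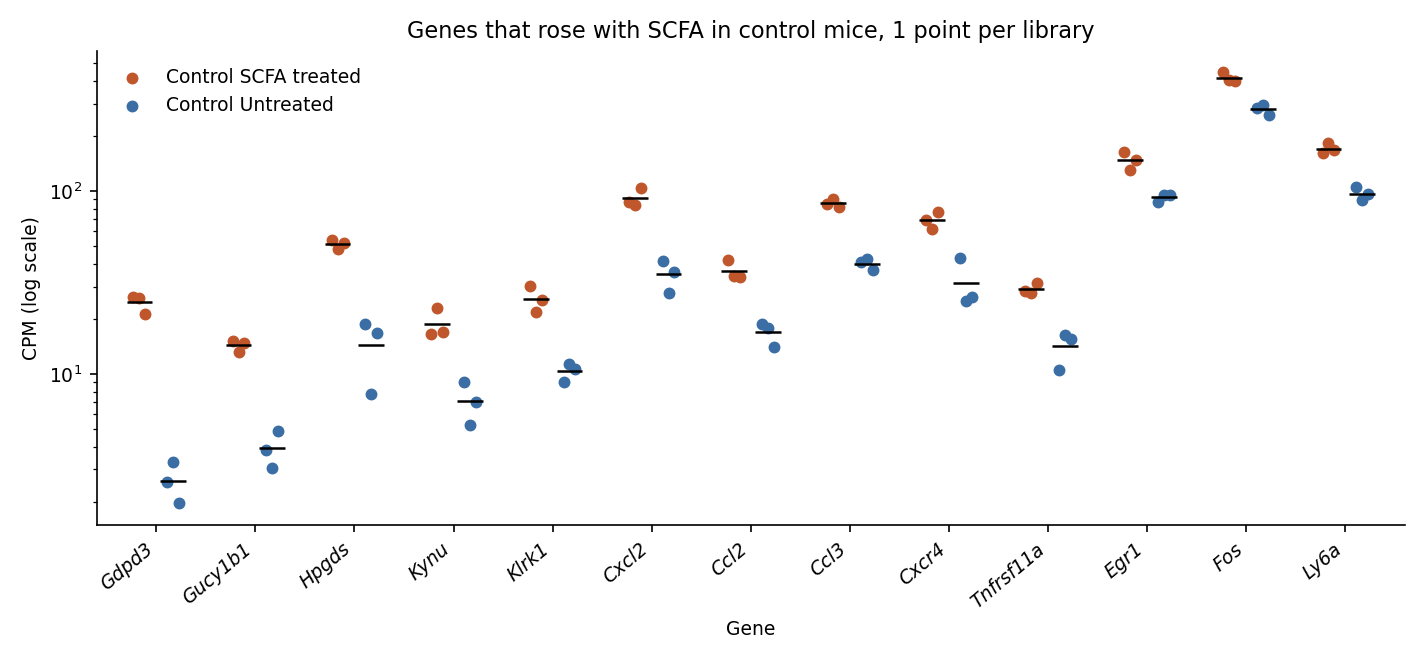
CPM on a log scale of 13 genes that rose with SCFA in control mice; points are libraries 1 to 3 of a group, SCFA left and untreated right, and bars are group means. The 3 SCFA libraries lie above the 3 untreated libraries for every gene shown, with the widest gap for Gdpd3.

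Prg2 and Epx, the major basic protein and the peroxidase of eosinophil granules, fell together. Prg2 had 643, 657 and 589.7 CPM in SCFA libraries, against 1119, 1517 and 1294 CPM in untreated libraries. Epx had 85.1, 83.8 and 75.1 CPM in SCFA libraries, against 147, 331 and 256 CPM in untreated libraries. All SCFA libraries were lower, and untreated 2 was the highest library for Epx. Prg2 fell by 0.95 ± 0.13 on the log2 scale (SE; adjusted p = 0.00105) and Epx by 1.47 ± 0.22 on the log2 scale (SE; adjusted p = 0.00246), and with the GC offset they stood at -0.63 (adjusted p = 1.61e-04) and -0.84 (adjusted p = 0.00223). Of 17 eosinophil, basophil and mast cell genes 6 fell and 2 rose, and 5 fell and 1 rose with the offset (47.1% called against 21.9% of all genes, and 35.3% against 5.01% with the offset). Without the offset 1 rose and 4 fell without SCFA 3, and 5 and 7 without untreated 1. The list as a whole was near 0, at a median log2 fold change of -0.006, or -0.12 with the offset. Without any 1 control library the median ranged from -0.18 to 0.22 in fits without the offset. The falls in both fits also included Hdc, which makes histamine (fell by 0.8 (adjusted p = 0.00584)), and Alox15, an eosinophil lipoxygenase (fell by 0.7 (adjusted p = 0.00598)). Fcer1a, the high-affinity IgE receptor of basophils and mast cells, went the other way and rose by 1.24 (adjusted p = 0.00598), or 0.85 with the offset. With the offset the call of Fcer1a was lost without SCFA 1, SCFA 3, untreated 2 or untreated 3 (adjusted p from 0.0679 to 0.111) and that of Hdc without SCFA 3 or untreated 2 (adjusted p from 0.058 to 0.081).

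Among neutrophil secondary and tertiary granule genes 9 of 14 fell and 2 rose, and 6 fell and 1 rose with the GC offset (78.6% called against 21.9% of all genes, and 50% against 5.01% with the offset); 0 rose and 3 fell without SCFA 3, and 2 and 9 without untreated 1. Ltf, lactoferrin, had 1563, 1568 and 1291 CPM in SCFA libraries, against 2088, 3493 and 2693 CPM in untreated libraries. Hp, haptoglobin, had 741, 650.2 and 541 CPM in SCFA libraries, against 1091, 1628 and 1370.0 CPM in untreated libraries. For both genes the SCFA libraries lay below the untreated libraries. Ltf fell by 0.79 ± 0.15 on the log2 scale (SE; adjusted p = 0.00584) and Hp by 0.97 ± 0.16 on the log2 scale (SE; adjusted p = 0.00422); with the offset they stood at -0.64 (adjusted p = 0.00223) and -0.39 (adjusted p = 0.0042). Cd177, a neutrophil surface protein, stood at -0.92 and -0.4 in the fits without and with the offset, and its call with the offset was lost without SCFA 3, untreated 2 or untreated 3 (adjusted p from 0.0503 to 0.0749). The primary granule genes, made earlier in neutrophil development, were called in larger part without the offset (66.7% called against 21.9% of all genes, and 11.1% against 5.01% with the offset). Of 9 tested, 6 fell and 0 rose without it, at a median of -0.67, and only Mpo, myeloperoxidase, fell with it, at -0.3 (adjusted p = 0.0286), against -0.91 without, and this call was lost without any 1 library except untreated 1 (adjusted p from 0.06 to 0.138). Of the list without the offset, 0 rose and 3 fell without SCFA 3, and 0 and 7 without untreated 1. Prtn3, proteinase 3, stood at -0.87 without and -0.13 (adjusted p = 0.364) with the offset, and Elane, neutrophil elastase, at -0.74 and -0.1 (adjusted p = 0.477). The call of Elane without the offset was lost without SCFA 3 (adjusted p = 0.0557).

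Of 16 tested mature neutrophil genes 10 rose and 2 fell, at a median of 0.44; with the GC offset 3 rose and 0 fell, at a median of 0.16 (75% called against 21.9% of all genes, and 18.8% against 5.01% with the offset). Without the offset 2 rose and 0 fell without SCFA 3, and 10 and 4 without untreated 1. The 3 included Cxcr4, the receptor that retains neutrophils in the marrow, and Il1r2, a decoy receptor for interleukin 1. Cxcr4 had 69.6, 61.6 and 76.4 CPM in SCFA libraries, against 43.2, 25.1 and 26.3 CPM in untreated libraries. Its groups did not overlap, and it rose by 1.23 ± 0.25 on the log2 scale (SE; adjusted p = 0.00694), or 0.99 with the offset where the call was lost without SCFA 1, SCFA 3, untreated 2 or untreated 3 (adjusted p from 0.0562 to 0.0885); Il1r2 rose by 0.56 (adjusted p = 0.00507). S100a8, a calcium-binding alarmin, had 35454, 34618 and 36338 CPM in SCFA libraries, against 31509, 13639 and 17895 CPM in untreated libraries. All SCFA libraries were higher, with untreated 1 the nearest to them. S100a8 rose by 0.85 ± 0.25 on the log2 scale (SE; adjusted p = 0.0269), but the call was lost with the GC offset (0.55 (adjusted p = 0.121)) and without any 1 of the libraries except untreated 1 (adjusted p from 0.0639 to 0.105).

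Of 13 tested platelet genes 5 rose and 1 fell, at a median of 0.48, and 6 rose and 0 fell with the GC offset, at 0.59 (46.2% called against 21.9% of all genes, and 46.2% against 5.01% with the offset). Without the offset 1 rose and 0 fell without SCFA 3, and 5 and 3 without untreated 1. The summed level was 863 to 908 CPM in SCFA libraries and 717 to 726 CPM in untreated libraries. Pf4, platelet factor 4, had 251, 236 and 262 CPM in SCFA libraries, against 207, 141 and 121 CPM in untreated libraries. Gp1ba, a subunit of the receptor for von Willebrand factor, had 32.7, 23.5 and 24.4 CPM in SCFA libraries, against 14.6, 15.4 and 18.9 CPM in untreated libraries. Ppbp, the precursor of a platelet chemokine, had 278, 293 and 338 CPM in SCFA libraries, against 211, 139 and 172 CPM in untreated libraries. The SCFA libraries lay above the untreated libraries for all 3. Pf4 rose by 0.77 (adjusted p = 0.018), Gp1ba by 0.83 (adjusted p = 0.0109) and Ppbp by 0.9 (adjusted p = 0.00688), and they stood at 0.8, 1.02 and 0.47 with the offset, all called. These calls rest on few libraries: without the offset that of Pf4 was lost without SCFA 3, untreated 2 or untreated 3 (adjusted p from 0.079 to 0.0853), that of Gp1ba without untreated 2 (0.0525) and that of Ppbp without SCFA 3 (0.0511). With the offset that of Pf4 was lost without any 1 library except untreated 1 (adjusted p from 0.0905 to 0.169) and that of Ppbp without SCFA 2, SCFA 3, untreated 2 or untreated 3 (adjusted p from 0.075 to 0.133).

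Of 17 tested macrophage genes 5 rose and 1 fell, and with the GC offset 6 rose and 0 fell, of which 1 was shared (35.3% called against 21.9% of all genes, and 35.3% against 5.01% with the offset); without the offset 0 rose and 0 fell without SCFA 3, and 4 and 2 without untreated 1. The complement genes C1qa, C1qb and C1qc, made by tissue macrophages, were called only with the offset, at 0.9 (adjusted p = 0.00934), 0.62 (adjusted p = 0.00358) and 0.91 (adjusted p = 0.0042), against 0.15, -0.02 and 0.27 without it. Their libraries overlapped: C1qb, for instance, had 74.4, 63.4 and 59.9 CPM in SCFA libraries, against 60.95, 82.1 and 73.7 CPM in untreated libraries. With the offset the call of C1qa was lost without SCFA 3 (adjusted p = 0.0568).

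Genes through which SCFA act on cells were called about as often as all genes without the GC offset. Ffar2, the receptor for acetate and propionate that neutrophils carry, had 9.16, 7.63 and 4.96 CPM in SCFA libraries, against 10.3, 13.2 and 10.5 CPM in untreated libraries. The SCFA libraries were lower, and it stood at -0.54 ± 0.22 (SE; adjusted p = 0.0955), or -0.17 (adjusted p = 0.661) with the GC offset, and passed neither test. Hcar2, a receptor for butyrate and ketone bodies, had 103, 105 and 93.5 CPM in SCFA libraries, against 64.3, 103 and 77.9 CPM in untreated libraries. The groups overlapped through untreated 2. Hcar2 stood at 0.41 (adjusted p = 0.0521) and did not pass. Among fits without the offset that left out 1 control library, it passed only without untreated 2 (adjusted p = 0.0266). With the offset it passed (0.54 (adjusted p = 0.00828)). Ffar3 had 0 counts in all SCFA libraries and 0, 11 and 0 counts in the untreated libraries, and Olfr78, an olfactory receptor that responds to SCFA, had 0 counts in all 6. Slc16a1, the monocarboxylate transporter MCT1, had 82.4, 85.7 and 93.5 CPM in SCFA libraries, against 110.5, 74.7 and 82.5 CPM in untreated libraries. The groups overlapped, and it stood at 0.07 (adjusted p = 0.834), or -0.34 (adjusted p = 0.126) with the offset. Of the 10 tested genes of SCFA sensing, transport and activation 2 fell and 0 rose, and with the offset Hcar2 alone rose (20% called against 21.9% of all genes, and 10% against 5.01% with the offset). One of the falls was Slc16a3, the lactate exporter MCT4 (-0.72, or -0.09 (adjusted p = 0.573) with the offset), a call lost without SCFA 2, SCFA 3 or untreated 2 (adjusted p from 0.0563 to 0.0927). Of the 10 genes, 0 rose and 0 fell without SCFA 3, and 0 and 4 without untreated 1, in fits without the offset.

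The 11 histone deacetylase genes ranged from -1.02 to 0.42. Hdac5 and Hdac10 fell, a share near that of all genes without the offset (18.2% called against 21.9% of all genes, and 0% against 5.01% with the offset). Hdac5 had 53.8, 41.4 and 33.3 CPM in SCFA libraries, against 61.5, 131 and 85.2 CPM in untreated libraries. Hdac10 had 15.95, 13.2 and 14.4 CPM in SCFA libraries, against 22.7, 38.9 and 25.3 CPM in untreated libraries. The SCFA libraries were below the untreated libraries for both. They stood at -1.0 (adjusted p = 0.0129) and -0.88 (adjusted p = 0.0454), and at -0.27 (adjusted p = 0.272) and -0.24 (adjusted p = 0.582) with the GC offset, so that 0 of 11 were called with it by edgeR, and 1 had an unadjusted p under 0.05 (range -0.36 to 0.24). The call of Hdac5 was lost without SCFA 3 or untreated 2 (adjusted p from 0.0564 to 0.0738) and that of Hdac10 without any 1 library except untreated 1 (adjusted p from 0.0661 to 0.19). Of the 11 genes, 0 rose and 0 fell without SCFA 3, and 1 and 5 without untreated 1, in fits without the offset. These are RNA levels; inhibition of the enzymes by SCFA would not be read from them.

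Osteoclast genes were measured because the study's title names osteoclasts. Tnfrsf11a (RANK) had 28.2, 27.7 and 31.2 CPM in SCFA libraries, against 10.5, 16.4 and 15.5 CPM in untreated libraries. All SCFA libraries were higher than all untreated libraries, and it rose by 1.15 ± 0.2 on the log2 scale (SE; adjusted p = 0.00431), or 1.02 (adjusted p = 0.00753) with the GC offset; it kept the call without each library. Csf1r, through which M-CSF keeps macrophage precursors alive, had 359, 354 and 303 CPM in SCFA libraries, against 355, 649 and 533 CPM in untreated libraries. Untreated 1 lay among the SCFA libraries. It fell by 0.48 ± 0.16 on the log2 scale (SE; adjusted p = 0.0469), a call lost with the offset (-0.01 (adjusted p = 0.974)) and without any 1 library except untreated 1 (adjusted p from 0.0839 to 0.18). Spi1, the myeloid factor PU.1, stood at -0.79 (adjusted p = 0.00613) and at -0.08 (adjusted p = 0.491) with the offset, and Bcl6, a repressor, rose in both fits by 0.47 (adjusted p = 0.0154) and 0.64; without SCFA 3 or untreated 3 its call was lost (adjusted p from 0.0742 to 0.0763), and with the offset without SCFA 3 (adjusted p = 0.0575). Of 21 tested osteoclast genes 4 rose and 6 fell, and with the offset 5 rose and 0 fell (47.6% called against 21.9% of all genes, and 23.8% against 5.01% with the offset); all 4 rises were shared. Without the offset 2 rose and 1 fell without SCFA 3, and 4 and 7 without untreated 1. Oscar and Calcr, a costimulatory receptor and the calcitonin receptor of osteoclasts, had 0 counts in all 6 libraries.

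Stat3 and its feedback inhibitor Socs3 were lower without the GC offset. Socs3 had 83.9, 70.8 and 55.96 CPM in SCFA libraries, against 115, 189.7 and 155 CPM in untreated libraries. Stat3 had 252, 246 and 215 CPM in SCFA libraries, against 280.3, 482 and 387 CPM in untreated libraries. The groups did not overlap for either. Socs3 fell by 1.02 ± 0.2 on the log2 scale (SE; adjusted p = 0.00613) and Stat3 by 0.58 ± 0.15 on the log2 scale (SE; adjusted p = 0.0192); with the offset they stood at -0.31 (adjusted p = 0.0574) and -0.27 (adjusted p = 0.0894), and neither was called, unless untreated 1 was left out (adjusted p = 0.039 and 0.0124). The call of Stat3 was also lost without SCFA 2, SCFA 3 or untreated 2 (adjusted p from 0.0546 to 0.0937). Of 16 STAT3 and IL-6 family targets 6 fell and 3 rose at a median of -0.55, and with the offset 2 fell and 1 rose at a median of -0.01 (56.2% called against 21.9% of all genes, and 18.8% against 5.01% with the offset); without it 0 rose and 3 fell without SCFA 3, and 2 and 8 without untreated 1. Il4ra, a receptor chain for interleukins 4 and 13, fell in both fits, by 1.13 (adjusted p = 0.00485) without the offset and with a value of -0.55 with it, a call lost without SCFA 1, SCFA 3, untreated 2 or untreated 3 (adjusted p from 0.0532 to 0.0679).

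Interferon-induced genes were called in both directions. Of 37 tested, 6 rose and 9 fell, at a median of 0.23, and 2 rose and 4 fell with the GC offset, at 0.05 (40.5% called against 21.9% of all genes, and 16.2% against 5.01% with the offset). Without the offset 2 rose and 2 fell without SCFA 3, and 9 and 11 without untreated 1. Isg15, a ubiquitin-like modifier, had 31.2, 31.1 and 27.1 CPM in SCFA libraries, against 46.9, 60.04 and 62.7 CPM in untreated libraries. The SCFA libraries were all lower, and it fell by 0.81 (adjusted p = 0.00627); Isg20, a nuclease, fell by 1.11 (adjusted p = 0.00147), and Usp18, which removes Isg15 from proteins, by 0.67 (adjusted p = 0.00935) (adjusted p = 0.0539 without SCFA 3). With the offset these 3 stood at -0.51, -0.45 and -0.53, all called. These calls were lost without any 1 library except untreated 1 (adjusted p from 0.0503 to 0.13) for Isg15, without SCFA 1, SCFA 2 or untreated 3 (adjusted p from 0.0604 to 0.0771) for Isg20 and without SCFA 3 or untreated 2 (adjusted p from 0.0729 to 0.073) for Usp18. Parp14, an ADP-ribosyltransferase, rose by 0.8 (adjusted p = 0.0045), or 0.56 with the offset, a call lost without SCFA 1, SCFA 3 or untreated 3 (adjusted p from 0.0615 to 0.0787).

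Several groups of housekeeping and metabolic genes had fewer calls with the GC offset than without it. So did all tested genes, at 5.01% with it against 21.9% without. Cytosolic ribosomal protein genes had 12 falls and 4 rises of 26 without it, and 4 and 0 with it (61.5% called against 21.9% of all genes, and 15.4% against 5.01% with the offset). Hypoxia and glycolysis genes had 9 falls and 3 rises of 22 without it, and 2 and 1 with it (54.5% called against 21.9% of all genes, and 13.6% against 5.01% with the offset), and cholesterol and fatty acid synthesis genes 9 falls and 0 rises of 23, and 2 and 1 (39.1% called against 21.9% of all genes, and 13% against 5.01% with the offset). Of 12 mitochondrially encoded genes, whose median GC content was 36.5%, 7 rose and 0 fell without it, and 1 and 0 with it (58.3% called against 21.9% of all genes, and 8.33% against 5.01% with the offset). As examples, the glycolytic Gapdh stood at -0.81 (adjusted p = 0.00699) without and at -0.21 (adjusted p = 0.126) with the offset, and mt-Cytb, cytochrome b of the respiratory chain, at 0.8 (adjusted p = 0.00884) and 0.26 (adjusted p = 0.0477); without SCFA 3 the call of mt-Cytb was lost (adjusted p = 0.062), and with the offset it was lost without SCFA 2, SCFA 3, untreated 2 or untreated 3 (adjusted p from 0.116 to 0.2). The ribosomal stalk protein Rplp0 fell in both fits, at -0.77 and -0.45, with the second call lost without SCFA 3 (adjusted p = 0.0538). Without the offset the list counts moved with the library left out. Falls and rises without SCFA 3, then without untreated 1, were 3 and 0, then 13 and 5, for ribosomal protein genes. They were 3 and 0, then 12 and 3, for hypoxia and glycolysis genes. Cholesterol and fatty acid synthesis genes had 1 and 0, then 11 and 3, and mitochondrially encoded genes 0 and 0, then 0 and 10.

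**Figure D4:**
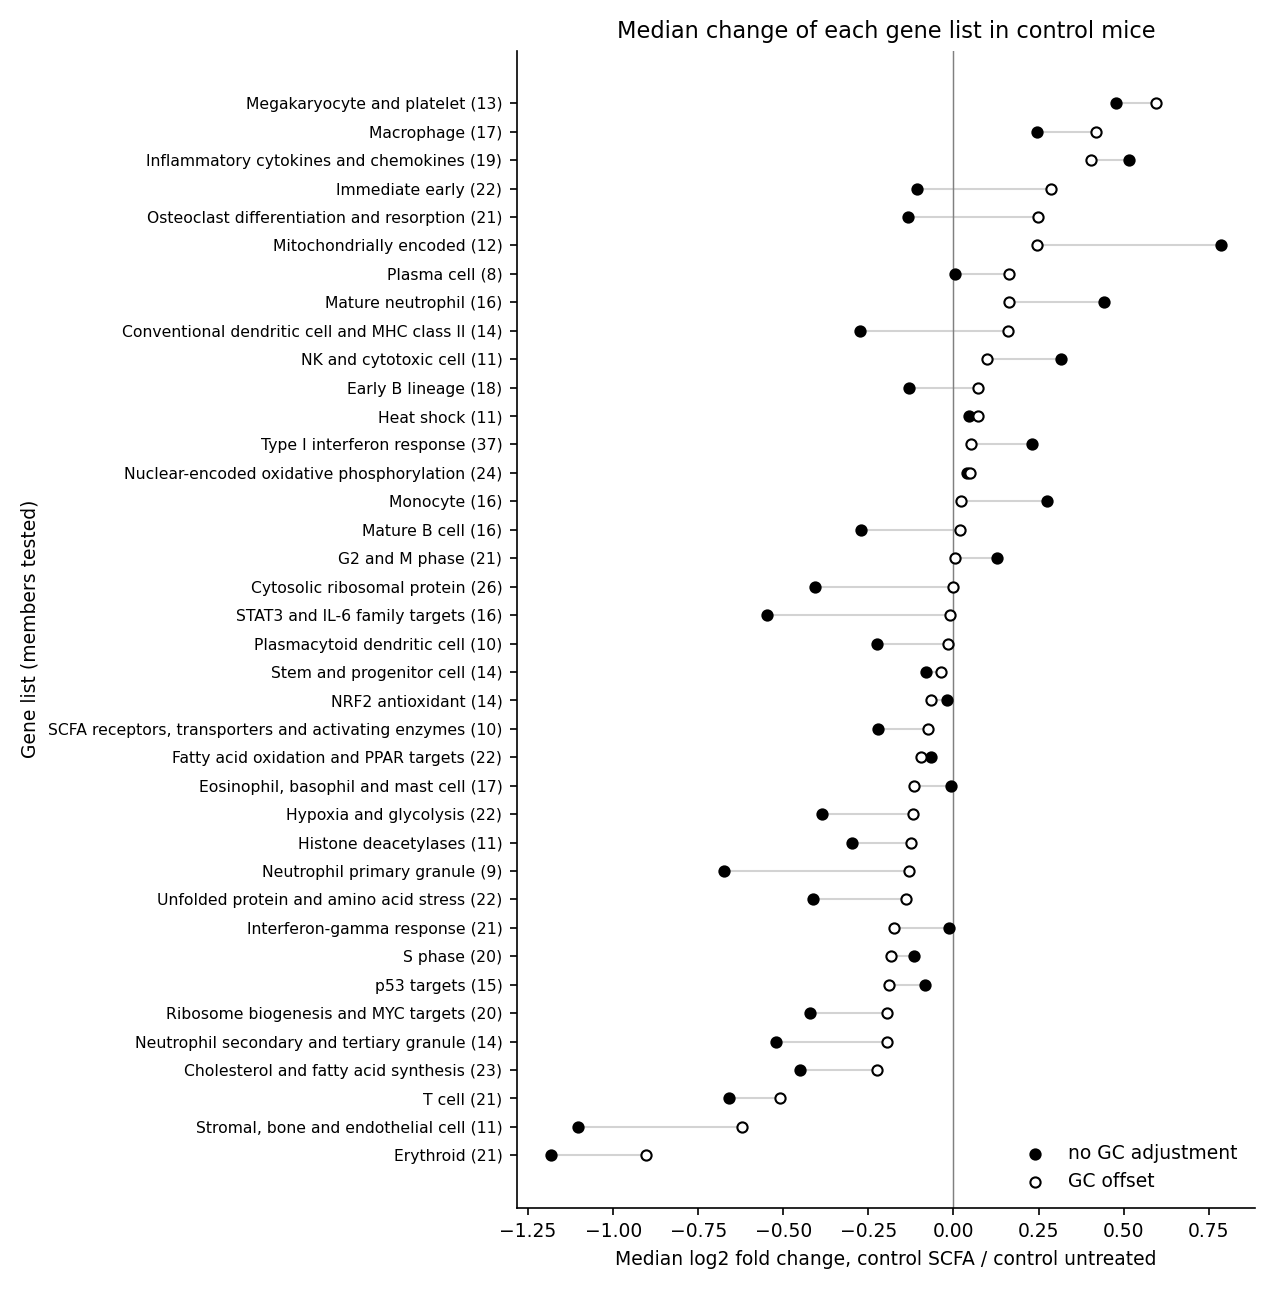
Median log2 fold change of SCFA over untreated control mice for each gene list with at least 8 tested members (number tested in brackets), without adjustment (filled) and with the GC offset (open), ordered by the value with the offset. Erythroid genes lie lowest in both, at -1.18 and -0.90, and the neutrophil primary granule, ribosomal and mitochondrially encoded lists lie nearer 0 with the offset.

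Markers of other cell types were read beside these results. The summed level of 16 stromal, bone and endothelial genes was 55.7 to 60.7 CPM in SCFA libraries and 63.7 to 129 CPM in untreated libraries. Among them Lepr was at 0 in all 6 libraries. Of the 11 tested, 2 fell without the GC offset and 0 with it (18.2% called against 21.9% of all genes, and 0% against 5.01% with the offset). The 2 were the collagen genes Col1a1, with 29, 14 and 16 counts in SCFA libraries against 20, 29 and 372 in untreated libraries, and Col1a2, with 0, 1 and 0 against 0, 0 and 308. The counts came from untreated 3, and without it both calls were lost (adjusted p = 0.709 and 0.701). Of the 11 stromal, bone and endothelial genes, 0 rose and 0 fell without SCFA 3, and 0 and 4 without untreated 1. T cell genes summed to 142 to 175 CPM in SCFA libraries and 210.2 to 264 CPM in untreated libraries, and 3 of 21 fell, or 0 by edgeR with the GC offset, where 9 had an unadjusted p under 0.05 (14.3% called against 21.9% of all genes, and 0% against 5.01% with the offset). Their median log2 fold change was -0.66, or -0.51 with the offset, against 0.04 and 0.01 over all tested genes. Without the offset 0 rose and 1 fell without SCFA 3, and 0 and 4 without untreated 1. Early B lineage genes summed to 1711 to 1738 CPM in SCFA libraries and 1831 to 2017 CPM in untreated libraries. Of 18, 2 rose and 3 fell, and 0 were called by edgeR with the offset, where 4 had an unadjusted p under 0.05 (27.8% called against 21.9% of all genes, and 0% against 5.01% with the offset). Without the offset 0 rose and 0 fell without SCFA 3, and 4 and 4 without untreated 1. The part of these cells in the other results was not tested.

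The same treatment was compared between genotypes by the interaction, the SCFA effect in control mice minus that in homozygous mice, which passed for 1813 genes above 0 (11.6%) and 2125 below (13.6%), or 838 (5.45%) and 611 (3.97%) with the GC offset. The total of 3938 (25.1%; 1449, or 9.42%, with the offset) became 2478 without control SCFA 3, 2455 without homozygous SCFA 2 and 2579 without homozygous untreated 2. In homozygous mice 621 genes rose with SCFA (3.96%) and 880 fell (5.61%), and this total of 1501 (9.58%) became 762 without SCFA 2, 743 without SCFA 3, 883 without untreated 1 and 797 without untreated 2. Red cell genes fell in both genotypes: the median of the erythroid list was -1.18 in control mice and -1.62 in homozygous mice, where 17 of 21 fell and 3 rose. Trim10 stood at -1.99 in control and -1.91 in homozygous mice, Car2 at -1.27 and -1.09, and Slc4a1 at -1.91 and -1.62, and for these 3 the interaction did not pass (adjusted p = 0.829, 0.415 and 0.442). Other members differed between genotypes. Of the 21 erythroid genes the interaction passed above 0 for 7 and below 0 for 3, against 11.6% and 13.6% of all genes. With the GC offset it passed for 7 and 1, against 5.45% and 3.97%. Hbb-bs, not called in control mice, fell by 2.15 on the log2 scale in homozygous mice, and the interaction passed (1.84, adjusted p = 2.25e-04), also with the GC offset (adjusted p = 1.34e-04). Gdpd3 rose in both, at 3.34 and 4.01, with an interaction of -0.67 ± 0.33 (SE; adjusted p = 0.154).

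Genes of the B lineage and of the interferon response differed between the genotypes. Rag1, which cuts DNA for antigen receptor assembly, had 50.99, 51.5 and 72.4 CPM in SCFA libraries, against 44.9, 48.8 and 38.6 CPM in untreated libraries in control mice, and 0 ± 0 CPM in homozygous SCFA and 15.9 ± 2.79 CPM in homozygous untreated libraries (mean ± SD, n = 3). Ebf1, a factor that specifies B cells, had 172, 162 and 177 CPM in SCFA libraries, against 122, 133 and 129 CPM in untreated libraries, and 8.202 ± 0.255 CPM in homozygous SCFA and 45.3 ± 5.07 CPM in homozygous untreated libraries (mean ± SD, n = 3). In control mice Ebf1 rose by 0.52 (adjusted p = 0.009), a call lost with the GC offset and without SCFA 3 (adjusted p = 0.0532), and Rag1 stood at 0.51 (adjusted p = 0.0857). The interaction was 3.01 ± 0.17 (SE; adjusted p = 1.80e-07) for Ebf1; for Rag1, with 0 counts in every homozygous SCFA library, it passed (adjusted p = 5.43e-07) but its fitted size depends on the prior count and is not given. Of 18 early B lineage genes 17 had an interaction above 0 and 0 below, in both fits. Of 37 interferon genes 32 did and 0 below, or 34 with the GC offset: Ifit3 stood at 0.07 in control and -3.52 in homozygous mice (interaction 3.59, adjusted p = 5.43e-07), and Rsad2 at -0.46 and -2.82 (interaction 2.36, adjusted p = 1.22e-05). In the other direction, the rises of Egr1 and Fos were smaller in control than in homozygous mice, at 0.78 against 2.45 and 0.68 against 1.85 (interaction -1.67, adjusted p = 1.56e-05, and -1.18, adjusted p = 2.96e-04; with the offset adjusted p = 0.0384 and 0.0023).

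The RANK gene rose by 1.15 in control mice and stood at 0.33 (adjusted p = 0.309) in homozygous mice, and the interaction passed without the GC offset (adjusted p = 0.039) but not with it (adjusted p = 0.178). Ly6a rose in control mice and fell in homozygous mice, at 0.92 and -1.23, and the interaction passed in both fits (adjusted p = 5.76e-06 and 1.42e-06). Ccl2 stood at 1.23 in control and -0.2 in homozygous mice (interaction adjusted p = 0.00303, or 0.036 with the offset), whereas Ccl3 rose in both, at 1.21 and 1.75. The untreated libraries of both genotypes carry the same date, as do the SCFA libraries.

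**Figure D5:**
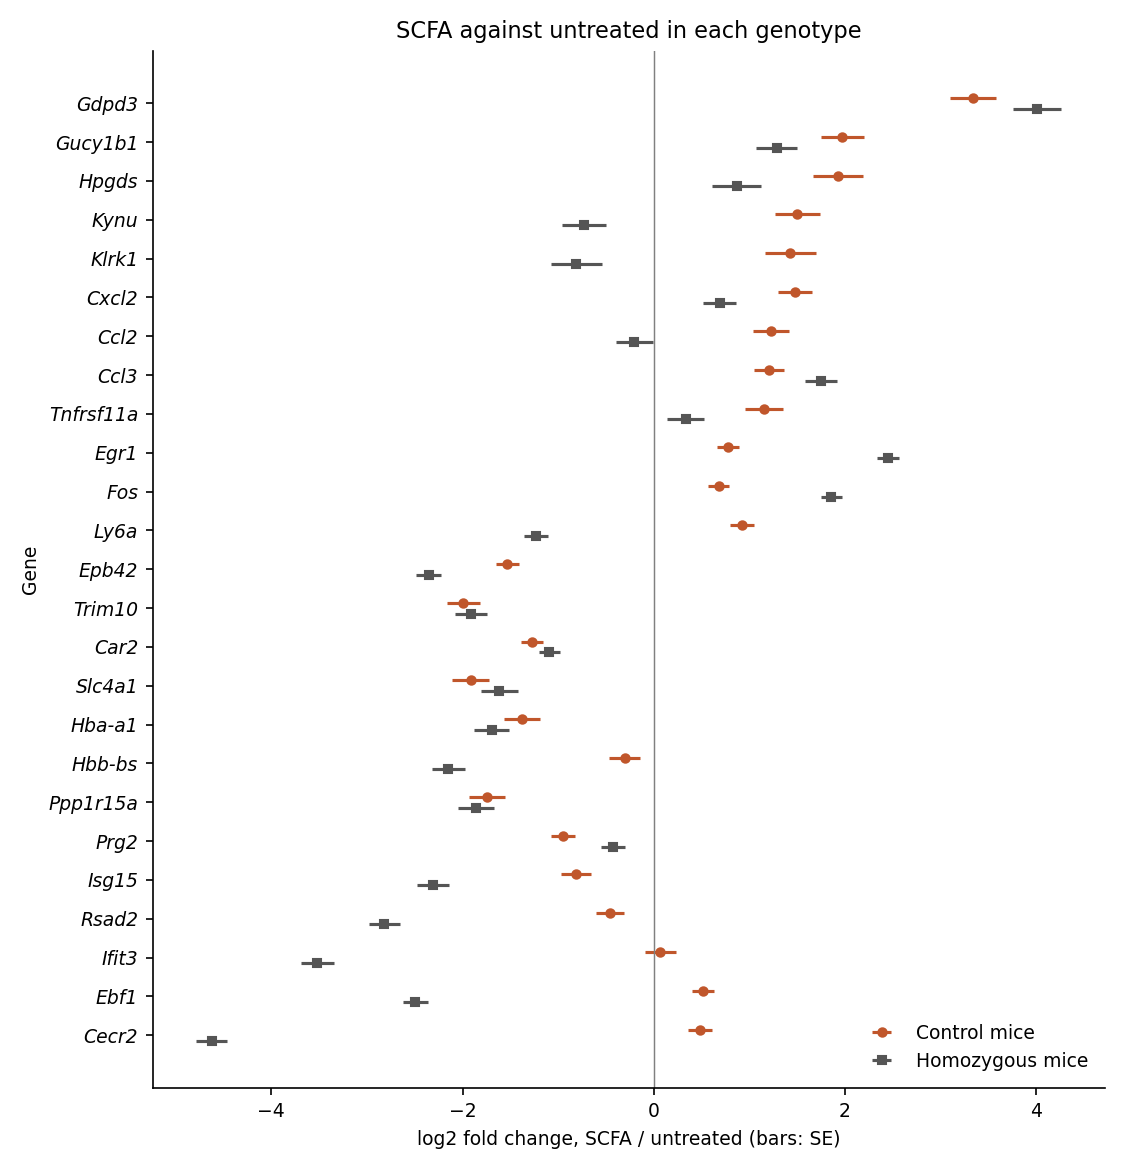
Log2 fold change of SCFA over untreated libraries for 25 genes, in control mice (circles) and homozygous mice (squares), with bars for the standard error, from the fit without a GC offset (3 libraries per group). Gdpd3 and most red cell genes lie on the same side in both genotypes. Interferon and B lineage genes such as Rsad2, Ifit3 and Ebf1 lie far lower in homozygous mice, as does Cecr2.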

How the data were processed

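The authors deposited raw counts per gene symbol, 1 column for each of the 12 libraries, and the submitters' processing notes name STAR, featureCounts and mm10. The sources used here give no version, gene annotation or strand setting for them. Per the labels' protocols, RNA came from a micro-scale Qiagen column kit and libraries from a Clontech kit for low input that selects poly(A) RNA. Of 55291 symbols, 22077 had 0 counts in all libraries.

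From these counts, edgeR 4.0.16 (R 4.3.3) fitted 4 group means to the 12 libraries after filterByExpr and TMM scaling, tested SCFA against untreated within each genotype and the interaction by the quasi-likelihood F test, and adjusted p by Benjamini-Hochberg over all genes tested, with calls at 0.05. SE is the log2 fold change divided by the square root of F. CPM are counts scaled to a common library total. The GC offset is a loess curve (span 0.5, degree 2) per library of log2 CPM, relative to the mean of all libraries, on the GC content of each gene's longest GENCODE M21 transcript; it was chosen after seeing the data and covers 98.2% of tested genes. Alternatives were RLE scaling, library size alone, no filter, DESeq2 1.42.0, limma 3.58.1 with voom quality weights, 6 libraries, a replicate block and leaving out each library. Both fits were also run on simulated counts. These held no trend with GC content among libraries, so they cannot show how either fit handles that trend. Replicates of a group differed by more than sampling noise. In control mice chi-square per degree of freedom ran from 31.7 to 96.2 between untreated libraries and from 12.9 to 17.8 between SCFA libraries. Intervals and floors cover counting error only.

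The members and gene lists were chosen with earlier results of these data known. Genes were named as the 15 largest rises and falls called with at least 5 CPM on average and no overlap between groups, up to 4 called members of each list by smallest p, a fixed set that includes Ffar2, Hcar2, Slc16a1, Tnfrsf11a, Csf1r and Stat3, and the 8 genes of smallest interaction p. Further genes, among them Hbb-bs, Sptb, Klf1, C1qa, S100a8, Rsad2 and Bcl6, were named after their values were seen. A gene of the lists is not reported by name here. Of 14 replication-dependent histone genes 1 was in the table and 0 passed the filter, and that list was not analysed. No column of the table was left unmapped.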

Additional observations from a re-analysis of the deposited data

Results flagged for a closer look

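SCFA effects that differed between control and homozygous mice by the interaction test of edgeR, at an adjusted p under 0.05, numbered 3938 of 15674 genes, and 1449 of 15385 with the GC offset. Of the genes named here, 53 passed, 26 above 0 and 27 below, and 33 of them also passed with the offset. Values are log2 fold changes in control mice minus those in homozygous mice, without the offset, and no explanation was tested.

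Among red cell genes the interaction was 0.82 for Epb42, 1.84 for Hbb-bs, 0.94 for Alas2, 0.59 for Fech and -1.42 for Sptb. Among the largest rises and falls it was 1.06 for Hpgds, 1.25 for Zscan26, 2.23 for Kynu, 2.24 for Klrk1, -2.32 for Adck5, an atypical kinase, and -1.91 for Ccdc57, a centrosomal protein. Chemokine and immediate early genes stood at 0.79 for Cxcl2, 1.43 for Ccl2, -1.67 for Egr1, -1.18 for Fos and -1.03 for Dusp1.

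Among granulocyte genes it was 0.88 for Il1r2, -0.93 for Mpo, -0.84 for Elane, -0.98 for Prtn3, -0.7 for Ltf, -1.46 for Hp, -1.21 for Cd177, -0.52 for Prg2, -0.66 for Hdc and -1.0 for Alox15. Macrophage and osteoclast precursor genes stood at -1.88 for C1qa, -1.67 for C1qb, -1.55 for C1qc, -1.21 for Csf1r, -1.25 for Spi1 and 0.82 for Tnfrsf11a. Ly6a stood at 2.15, Slc16a3 at -1.43, Hdac5 at -1.76, Stat3 at -0.88, Socs3 at -1.76 and Il4ra at -1.27.

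The named interferon-induced genes were all above 0, with 1.5 for Isg15, 2.36 for Rsad2, 1.58 for Irf7, a transcription factor of the interferon response, 1.74 for Parp14, 3.17 for Ifit2, 3.59 for Ifit3 and 1.72 for Usp18. Early B lineage genes stood at 3.01 for Ebf1, and above 0 for Rag1 (adjusted p = 5.43e-07) and Igll1, a surrogate light chain (adjusted p = 8.76e-07), whose fitted sizes depend on the prior count and are not given, since the homozygous SCFA libraries held at most 3 counts of each. Cecr2, a chromatin remodelling protein, stood at 5.11 and Akap12, a kinase anchor, at 5.1. Of housekeeping genes Gapdh stood at -1.13, Rplp0 at -0.93 and mt-Cytb at 1.09.

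With the GC offset the interaction no longer passed for Epb42, Hpgds, Zscan26, Ccdc57, Cxcl2, Mpo, Elane, Prtn3, Prg2, Hdc, Tnfrsf11a, Spi1, Hdac5, Il4ra, C1qa, C1qc, Dusp1, Sptb, Fech and Gapdh.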

How the results depend on the processing

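In control mice, 1393 rises and 2039 falls became 681 and 1354 when only the 6 libraries compared were fitted, 362 and 409 with the GC offset, and 151 and 195 with the offset in those 6 alone. The totals were 2035, 771 and 346 against 3432. Of the single genes checked, 7 lost their call with the same sign in the 6 alone, 18 with the offset and 34 with the offset in the 6 alone. Scaling by library size alone gave 914 rises and 2422 falls, a share of rises of 27.4% against 40.6%, and moved the median of all tested genes by -0.11 on the log2 scale. Limma-voom with quality weights gave 2423 rises, and DESeq2 2043 rises and 2397 falls. Leaving out 1 control library gave 613 to 5090 calls, 186 to 2172 rises and 427 to 2918 falls, and with the offset 242 to 1530 calls, 97 to 815 rises and 145 to 715 falls. The causes of these shifts were not tested, except that fits with fewer libraries have fewer residual degrees of freedom by construction.

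For the interaction, 3938 calls became 1449 with the GC offset (838 above 0 and 611 below) and 2455 to 5379 without 1 library (1053 to 2462 above and 1402 to 2917 below), and limma-voom gave 2950 above 0. In homozygous mice 1501 calls became 2276 with DESeq2 (986 rises) and 2988 with limma-voom (1463 rises, 1525 falls), and 743 to 1425 without 1 library (265 to 622 rises and 478 to 803 falls).

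Of single genes, the log2 fold change changed sign with the GC offset for Slc16a1 (-0.345, or -0.347 in the 6 libraries alone), Irf7 (0.113 and 0.118), Ifit3 (-0.0939 and -0.102) and C1qb (0.618 and 0.623). It changed sign by library size alone for Slc16a1 (-0.0331) and Ifit3 (-0.0422), and by limma-voom for Ifit3 (-0.0101). Without 1 library, values ranged from -0.408 to 0.242 for Slc16a1, from -0.519 to 0.162 for Irf7, from -0.173 to 0.162 for Ifit3, from -0.148 to 0.663 for C1qb, from -0.709 to 0.0482 for Csf1r, from -0.418 to 0.0636 for Hbb-bs, from -0.0217 to 0.575 for Ebf1, from -0.0457 to 0.627 for Rag1, from -3.34 to 0.275 for Col1a1 and from -9.56 to 2.02 for Col1a2, over fits with and without the offset. Without untreated 3, Col1a1 and Col1a2 had few counts.

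A fit with the replicate number as a block gave 1416 rises and 1833 falls. The labels do not say that a number joins an SCFA and an untreated library, and the deviations of same-numbered libraries correlated at -0.0593, 0.0432 and 0.0315, so the block was not used. It moved no count of calls in control mice, in homozygous mice or of the interaction by over 1.5 times. Dose, SCFA type, date and any difference between mice and cultures cannot be told apart here.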

Other observations

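Lists not described above had these calls in control mice given SCFA, without and then with the GC offset. Of all tested genes 8.89% rose and 13% fell without it, and 2.35% rose and 2.66% fell with it, and a list called at about these shares, such as the heat shock genes, is not set apart by its count. Of 16 monocyte genes 5 rose and 4 fell, and 1 and 0. Of 14 genes of conventional dendritic cells and MHC class II, 1 rose and 2 fell, and 3 and 0. Plasmacytoid dendritic cell genes had 1 rise and 4 falls of 10, and 0 calls by edgeR with the offset, whereas 6 of 10 fell in homozygous mice. Mature B cell genes had 1 rise and 4 falls of 16, plasma cell genes 0 and 1 of 8, and NK and cytotoxic genes 2 and 1 of 11, against 0, 0 and 1 rise with the offset.

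Genes of S phase had 1 rise and 7 falls of 20, and 0 and 2 with the offset, and genes of G2 and M phase 5 rises and 3 falls of 21, and 0 and 2. Of 20 ribosome biogenesis and MYC targets 1 rose and 8 fell, and 0 were called by edgeR with the offset, where 9 had an unadjusted p under 0.05. Of 15 p53 targets 1 rose and 6 fell, and 0 and 2 with the offset. Interferon-gamma response genes had 0 rises and 4 falls of 21, and 0 and 1. Genes of the NRF2 antioxidant response had 3 rises and 2 falls of 14, and 2 and 2, and heat shock genes 1 and 1 of 11, and 0 and 1. Fatty acid oxidation and PPAR targets had 2 rises and 5 falls of 22, and 0 and 2, and nuclear-encoded genes of oxidative phosphorylation 2 and 7 of 24, and 1 and 2. Nuclear-retained noncoding RNAs had 1 rise of 3 tested, and 0 with the offset. These counts moved with the library left out, with the lowest totals without SCFA 3 in all 39 lists.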
